A study of Mus musculus with 8 samples.

Results

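Lung RNA 3 days after left pneumonectomy (PNY) was compared with lung RNA 3 days after sham surgery (SHAM). The comparison rests on 2 of the 8 Affymetrix mouse arrays of the series, 1 for each arm, both taken at 3 days. All animals were female C57BL/6 mice of 10 to 12 weeks, with no transgene or deletion named in either arm. Mice of both arms were ventilated under ketamine and xylazine, and received ampicillin and buprenorphine. In PNY the left lung was tied off at the hilum and removed. In SHAM the left chest was opened at the same rib space, kept open for 5 minutes and closed with the lung in place. Each array holds RNA from lung tissue of 8 mice pooled in equal amounts, and the other 6 arrays cover 6 hours, 1 day and 7 days in the same way. Each pool gives a mean over mice without the spread between them, so the 3-day values carry no replicate error and no test was made on them. Lung left after PNY is right lung, whereas SHAM mice kept both lungs, and the sources used here do not say which lobes entered the pools; surgery and lobe cannot be told apart.

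Removal of 1 lung is followed in adult mice by growth of the remaining lung, in which alveolar epithelial, endothelial and interstitial cells divide and new collagen and elastin are laid down. The G2/M phase of the cell cycle is carried by a set of genes that are transcribed together, from the kinase Cdk1 to the kinetochore, spindle and cytokinesis proteins. Type 2 immunity is the branch of the immune response in which eosinophils, alternatively activated macrophages and mucus-producing goblet cells take part.

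A level below is the deposited log2 value of a gene, and a difference is the PNY level minus the SHAM level, so a difference of 1.00 is 2-fold. Each of 18193 genes is given by 1 probe set, a gene or probe set is called higher or lower when it is past a fold change of 1.5 (a difference of 0.58), and a level compares a gene between arrays, never between genes. Array medians over the genes ranged from 5.90 to 5.95. Both 3-day arrays held the markers of lung: the levels in PNY and SHAM were 14.67 and 14.69 for Sftpc (surfactant protein C of alveolar type II cells), 14.73 and 14.71 for Scgb1a1 (club cells), 14.07 and 13.93 for Ager (alveolar type I cells), 11.07 and 11.22 for Pecam1 (endothelium), 12.18 and 11.80 for Col1a2 (fibroblasts) and 11.10 and 11.12 for Ptprc (leukocytes). Foxj1 (ciliated cells) stood at 9.48 in PNY and 9.88 in SHAM, a difference of -0.40, within the fold. The 9 housekeeping genes had a median difference of 0.01 and none was past 1.5-fold. In whole lung, fewer cells of a type and less RNA per cell cannot be told apart.

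At 3 days 208 genes were higher in PNY, 1.14% of all genes, and 93 were lower, 0.511%. Past a fold change of 2 there were 51 higher and 6 lower. The median difference over all genes was 0.01, with a standard deviation over genes of 0.21. By any amount, 9579 of all genes (52.7%) were above SHAM at 3 days, the share against which counts above or below SHAM are read. The 15 largest differences each way among genes above the median level of 5.92 were of several kinds. Of those above SHAM, Clca1, Slc26a4 and Retnla belong to the airway and to type 2 immunity, Pbk, Ect2, Birc5, Cep55, Mki67, Cdc20, Ube2c, Rrm2 and Hells to cell division, Tnc to the matrix and Arg1 to arginine metabolism in activated macrophages, while AA467197 (1.33) was placed in none of these. Below SHAM stood the immunoglobulin genes Ighm, Jchain, Igkv8-30 and another kappa variable gene, the chemokine Cxcl13, the transcription factors Zbtb16 and Nr1d1, the growth factor binding protein Igfbp3, Alas2, Esm1, Cd274 and Igtp, described further on, and the glycosyltransferase Galnt15 (-1.18), the peroxisomal thiolase Acaa1b (-0.86) and neurogranin, Nrgn (-0.74).

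**Figure D1:**
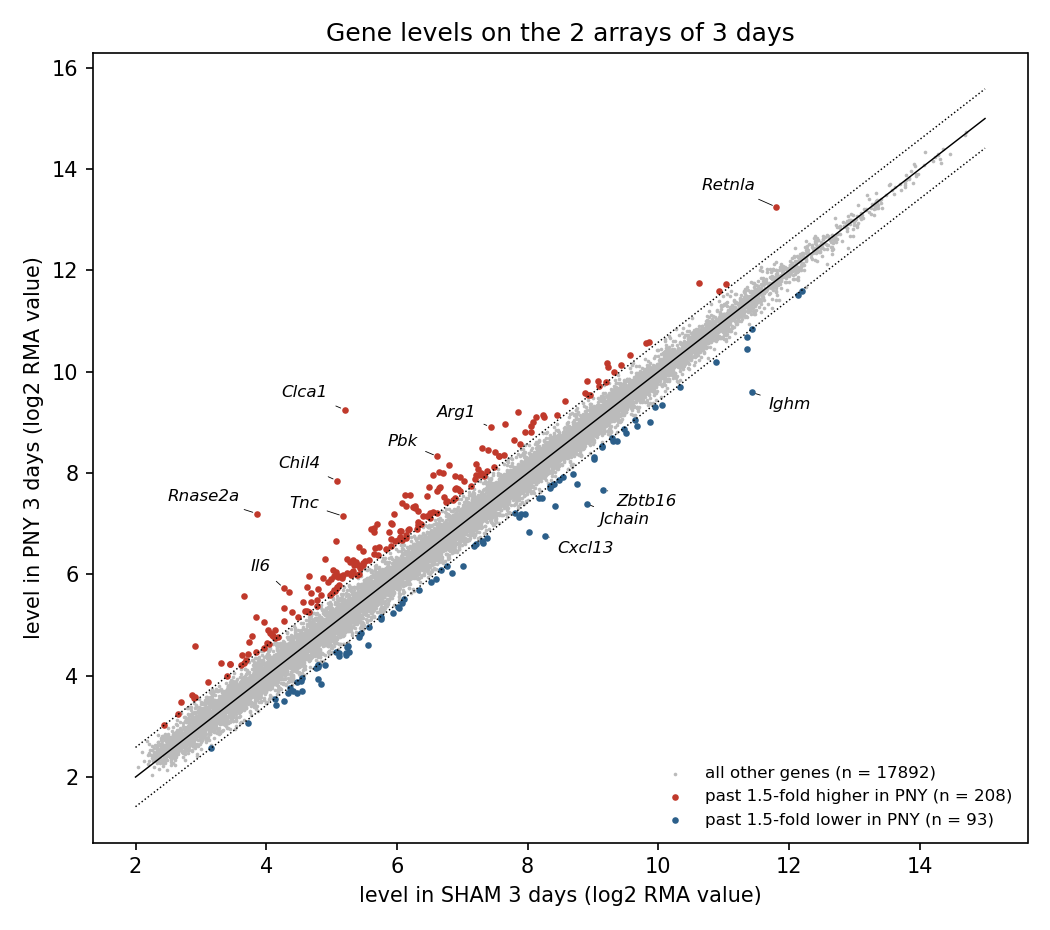
Level of each of 18193 genes in SHAM (x axis) and in PNY (y axis) at 3 days, as log2 RMA values; the solid line marks equal levels and the dotted lines a fold change of 1.5. The 208 higher genes reach 4.05 above the line, at Clca1, and the 93 lower genes 1.84 below it, at Ighm.

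The 3-day levels were set beside those of the other arrays. The genes were picked by their 3-day difference, which itself favours an extreme level on each of the 2 arrays. The shares below are thus partly fixed by that choice and only describe the genes. Of the 208 higher genes, 80.8% had a PNY level at 3 days above all 4 SHAM arrays, whereas 79 had a SHAM level at 3 days below the other 3 SHAM arrays. Of the 93 lower genes, 49 had a PNY level below all 4 SHAM arrays and 52 had their highest SHAM level at 3 days. Over all 18193 genes the PNY array of 3 days was above all 4 SHAM arrays in 3256 and below them in 2173, and the SHAM array of 3 days was the highest of its arm in 23.3% and the lowest in 18.6%. Where a higher gene had another probe set above the median level, 50 of 53 such probe sets differed in the same direction and 22 of them were past 1.5-fold; for the lower genes these numbers were 22 of 24 and 10.

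Genes of cell division made up the largest group. The G2/M and mitosis list had 39 measured genes, of which 32 were higher in PNY at 3 days, none was lower and 7 lay within the fold, with a median difference of 1.06 against 0.01 over all genes. The 2 members not above SHAM were Kif2c, a microtubule-depolymerising kinesin (-0.15), and the phosphatase Cdc25c, at 4.48 in PNY and 4.49 in SHAM. Of 32 genes of S phase and DNA replication 11 were higher, none was lower, and every one was above SHAM (median 0.52). Of 16 G1 cyclins, their kinases and inhibitors none was past 1.5-fold (median 0.17).

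Pbk, a mitotic kinase, had the largest difference of the mitosis genes. In the order of the 4 time points, from 6 hours to 7 days, which is kept for all such runs of values, its PNY levels were 6.78, 7.17, 8.33 and 9.29 and its SHAM levels 6.53, 6.81, 6.62 and 7.19. The 2 later PNY arrays thus lay above all SHAM arrays and the 3-day difference was 1.71, a fold change of 3.27. For Cdk1, the kinase that drives entry into mitosis, PNY levels were 7.33, 7.41, 8.51 and 9.38 against 7.02, 7.11, 7.30 and 7.52 in SHAM, with a difference of 1.21 at 3 days. Mki67, the gene of the proliferation antigen Ki-67, stood at 8.02 in PNY and 6.65 in SHAM at 3 days, and its 3 other SHAM levels ran from 6.66 to 7.26. Cenpf, a kinetochore protein, stood at 6.65 and 5.07 (difference 1.58), although its 2 dimmer probe sets gave -0.15 and 0.09. Cdc20, the activator of the anaphase-promoting complex, stood at 9.20 and 7.85 (1.35; 0.37 by a dimmer probe set), and Ube2c, the ubiquitin-conjugating enzyme of that complex, at 8.01 and 6.71 (1.30). Ect2, Birc5 and Cep55, which act in cytokinesis or in chromosome segregation, differed by 1.44, 1.42 and 1.38.

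Foxm1 encodes a transcription factor of the G2/M genes. Its levels in PNY were 6.54, 6.54, 6.87 and 6.98 and in SHAM 6.68, 6.35, 6.60 and 6.10, with a 3-day difference of 0.27, within the fold; its other probe sets gave 0.03, 0.34 and 0.61, the last past the fold. Ccnd1 (cyclin D1, which acts in G1) stood at 10.92 in PNY and 10.74 in SHAM at 3 days (0.18). A second, equally bright probe set of Ccnd1 gave 0.56 and a dimmer one 0.06, all within the fold. In the S phase list the largest differences were those of Rrm2, the small subunit of ribonucleotide reductase (8.97 against 7.65), thymidine kinase Tk1 (7.71 against 6.64), Uhrf1, which reads hemimethylated DNA behind the replication fork (7.31 against 6.28), cyclin Ccne2 (5.72 against 4.80), Dtl (6.25 against 5.37) and the replication licensing factor Cdc6 (5.99 against 5.18). PNY arrays of 3 days lay above all SHAM arrays for each of these 6 genes, and Dtl's 5 other probe sets, all dim, gave -0.05 to 1.00, with 1 of the 5 past the fold. The chromatin remodeller Hells, among the 15 largest differences, had dimmer probe sets at 0.16 and -0.06.

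Since the mitosis genes differed together, their promoters were read for short motifs. RefSeq windows of the GRCm38.p6 build, from 250 bases before to 50 after the start, were at hand for 30 of the 39 mitosis genes, and 27 had a single window. The letters CCAAT, on either strand, stood in 21 of these 27 windows (77.8%), against 38.6% of the 11791 measured genes with 1 window. TTTGAA or TTCGAA, the letters of the cell cycle homology region, on either strand, stood in 22 of 27 (81.5%) against 15.1%, and both kinds together in 20 of 27 (74.1%) against 6.06%. For TTCCCGC or TTGGCGC, the core letters of an E2F site, the mitosis list held 2 of 27 (7.41%) against 10.6%. In the S phase list of 22 single windows this order was turned, with the E2F letters in 12 (54.5%), the TTTGAA or TTCGAA letters in 3 (13.6%) and CCAAT in 13 (59.1%). Matches on the other strand read ATTGG for the first kind, TTCAAA (or the same letters, for the palindrome) for the second and GCGGGAA or else GCGCCAA for the E2F letters, and ATTGG can share bases with TTGGCGC. A match is a run of letters and does not show that a factor binds there.

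The 3 mitosis genes with the largest differences and a single window, and the first gene of the S phase list, are printed 5′ to 3′ on the gene's strand to show how these motifs lie. Capitals mark any of the motifs named above.
Cenpf: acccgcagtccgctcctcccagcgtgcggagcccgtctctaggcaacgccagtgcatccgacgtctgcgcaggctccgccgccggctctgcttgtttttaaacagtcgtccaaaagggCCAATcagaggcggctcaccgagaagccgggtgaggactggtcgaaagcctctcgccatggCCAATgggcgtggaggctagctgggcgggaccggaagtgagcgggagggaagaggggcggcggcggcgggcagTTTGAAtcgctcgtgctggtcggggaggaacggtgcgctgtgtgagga
Birc5: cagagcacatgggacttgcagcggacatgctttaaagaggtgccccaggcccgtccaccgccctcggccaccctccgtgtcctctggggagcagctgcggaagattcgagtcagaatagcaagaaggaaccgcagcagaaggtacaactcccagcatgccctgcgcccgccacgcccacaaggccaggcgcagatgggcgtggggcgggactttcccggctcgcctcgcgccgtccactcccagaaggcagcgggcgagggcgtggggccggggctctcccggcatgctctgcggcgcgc
Mki67: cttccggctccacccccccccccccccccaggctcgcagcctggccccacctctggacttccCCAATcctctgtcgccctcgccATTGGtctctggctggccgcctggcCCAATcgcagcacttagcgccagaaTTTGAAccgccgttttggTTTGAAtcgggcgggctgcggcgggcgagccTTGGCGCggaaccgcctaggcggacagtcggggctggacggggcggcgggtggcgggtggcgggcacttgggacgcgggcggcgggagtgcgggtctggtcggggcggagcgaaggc
Rrm2: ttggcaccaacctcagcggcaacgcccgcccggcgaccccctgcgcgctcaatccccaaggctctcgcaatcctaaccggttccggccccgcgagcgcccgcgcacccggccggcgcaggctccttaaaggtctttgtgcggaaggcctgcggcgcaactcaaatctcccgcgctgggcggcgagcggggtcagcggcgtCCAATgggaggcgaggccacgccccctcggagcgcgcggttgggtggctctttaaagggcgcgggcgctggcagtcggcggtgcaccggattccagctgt
In Cenpf (chr1:189688037-189688336, minus strand) CCAAT starts 132 and 71 bases before the gene's start and TTTGAA follows just after it. In Mki67 (chr7:135716330-135716629, minus strand) CCAAT starts 188 and 141 bases before the start and ATTGG 166 bases before it, TTTGAA 116 and 98 bases before it and TTGGCGC 67 bases before it. Birc5 (chr11:117848987-117849286, plus strand), with a difference of 1.42, held none of the motifs, and Rrm2 (chr12:24708004-24708303, plus strand) held CCAAT 50 bases before its start and no other.

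**Figure D2:**
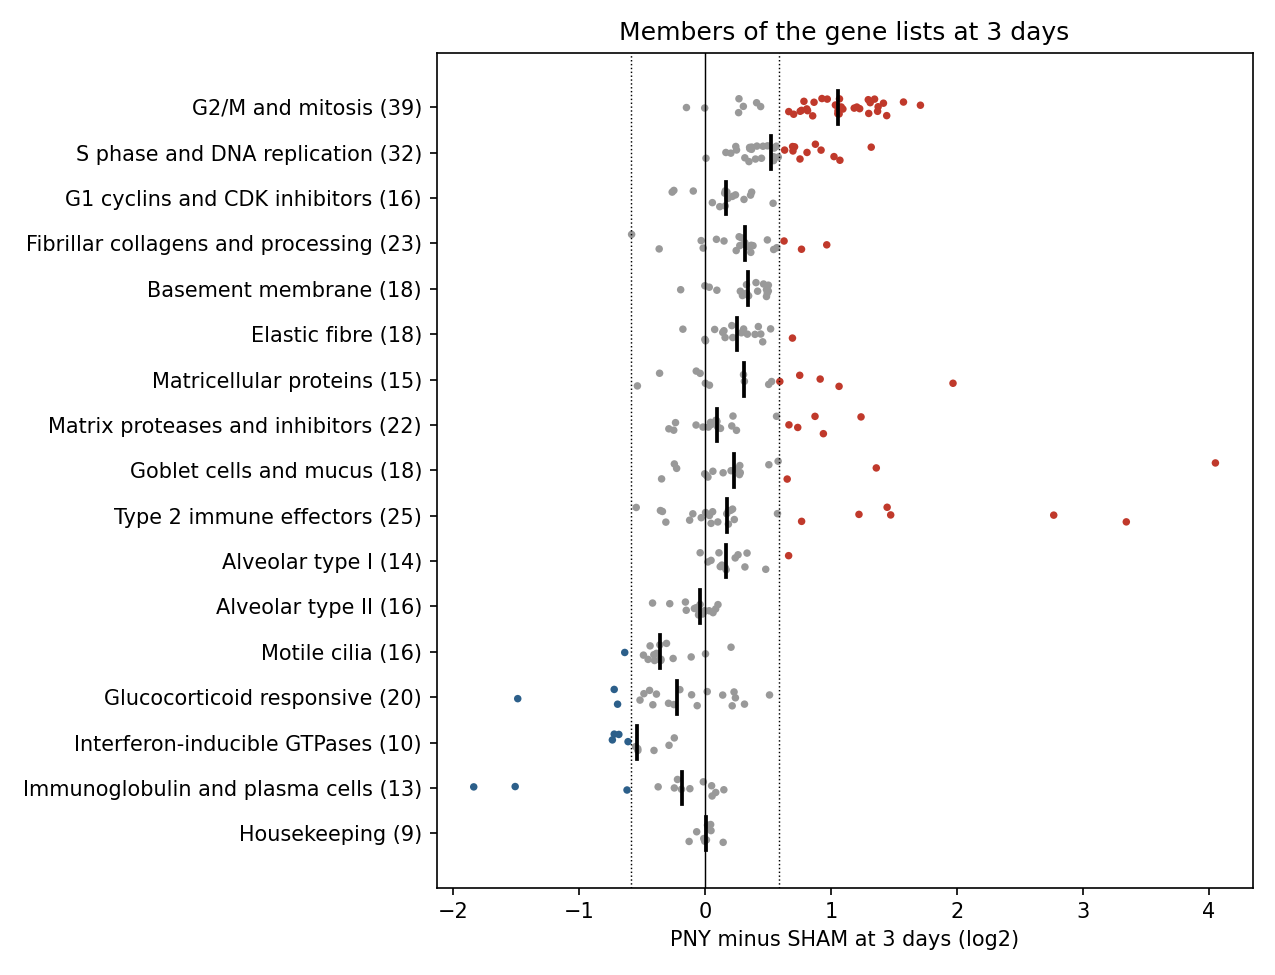
Difference at 3 days (x axis, log2, PNY minus SHAM) for the measured members of 17 gene lists, with the number of members in brackets; each point is a gene, red past 1.5-fold higher, blue past 1.5-fold lower, and the black bar is the list's median. The G2/M list lies almost wholly to the right (median 1.06), the interferon-inducible GTPases wholly to the left (median -0.54), and the goblet cell and type 2 lists have medians of 0.23 and 0.17 with a few members far to the right.

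Growth factors differed in few members. Of 30 measured ligands 2 were higher and none was lower (median 0.08). Igf1, insulin-like growth factor 1, had PNY levels of 7.99, 8.76, 9.10 and 9.43 and SHAM levels of 7.81, 8.27, 8.13 and 8.59. Its PNY level at 3 days was above every SHAM level, with a difference of 0.97. The epidermal growth factor receptor ligand Hbegf stood at 10.13 and 9.43 (0.70). Among 12 genes that bind, release or receive IGF, Pappa2, a protease that cleaves IGF binding proteins, was higher (4.78 against 3.78), as was Igfbp2 (11.59 against 10.93), while Igfbp3, a carrier of circulating IGF, was lower. Igfbp3 levels in SHAM were 10.18, 10.03, 9.88 and 10.03, and PNY differed from them by 0.03, -0.62, -0.88 and -1.02, so that all PNY arrays after 6 hours lay below all SHAM arrays.

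Of 15 genes of mechanical stretch and YAP signalling 2 were higher and none was lower (median 0.13). They were Thbs1 (thrombospondin 1), at 9.82 in PNY and 8.91 in SHAM, and Tnfrsf12a, the receptor of the cytokine TWEAK, at 9.43 and 8.58. For Tnfrsf12a the SHAM level at 3 days was the lowest of that arm, while the PNY level lay within the other PNY levels (9.30 to 9.89).

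Matrix genes were mostly above SHAM, with few past the fold. Of 23 genes listed under fibrillar collagens and processing 19 were above SHAM and 3 were higher (median 0.32). Col6a3, a chain of collagen VI, which is not itself fibrillar, stood at 10.18 against 9.21. The other higher genes were Col5a2 (10.57 against 9.81) and Plod2, a collagen lysyl hydroxylase (9.55 against 8.92, and 0.49 by a second probe set). Col3a1, the chain of collagen III, stood at 13.04 and 12.70, within the fold, while its second probe set stood at 9.75 and 8.99 (0.77), past it. The proteoglycan Dcn went the other way (11.68 against 12.27), just within it. In the basement membrane list 16 of 18 were above SHAM and none was past the fold (median 0.34, from -0.19 to 0.50), and for 12 of the 18 the SHAM level at 3 days was the lowest of the SHAM arrays, against 18.6% of all genes. In the elastic fibre list 16 of 18 were above SHAM (median 0.26), and elastin, Eln, was the member that was higher: its PNY levels were 11.03, 11.32, 11.74 and 12.45 and its SHAM levels 10.61, 10.87, 11.04 and 11.43. Both arms of Eln thus stood higher at each later time, with PNY above SHAM throughout.

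Matricellular proteins, which sit in the matrix and signal to cells, had 5 of 15 higher and none lower (median 0.31). Tnc, tenascin C, had PNY levels of 5.56, 6.57, 7.15 and 7.99 and SHAM levels of 5.62, 5.55, 5.18 and 6.34. The 3-day SHAM level was the lowest of the 8 arrays, and the 3-day difference of 1.97 was a fold change of 3.92 (0.16 by a dim probe set). Versican, Vcan, stood at 6.31 in PNY and 5.24 in SHAM; its PNY level was close to those at 6 hours and 1 day (6.34 and 6.24) and its SHAM level was the lowest of that arm. A second Vcan probe set gave 1.33 and 6 dimmer ones -0.09 to 0.46. Cilp and Ccn4 differed by 0.75 and 0.59, and fibronectin, Fn1, by 0.53, within the fold, and by 1.08 with a dimmer probe set. Of 22 matrix proteases and inhibitors 5 were higher: macrophage elastase Mmp12 (7.73 against 6.49, the highest of the 8 arrays), Adamts4 (5.63 against 4.69; 0.38 by a dimmer probe set), Adamts9 (8.93 against 8.05; a dimmer probe set gave 0.05), the inhibitor Timp1 (9.82 against 9.08) and Adamts1 (9.99 against 9.32). Adamts4 was also the lowest of the PNY arrays at 3 days, so its difference lay in the low SHAM level.

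Clca1, a secreted protein of goblet cells linked with mucus, had the largest difference of all genes. Its PNY levels were 8.10, 7.00, 9.25 and 8.58 and its SHAM levels 5.74, 5.72, 5.20 and 5.51. All 4 PNY arrays lay above all SHAM arrays, PNY was highest at 3 days and SHAM lowest, and the 3-day difference of 4.05 was a 16.6-fold change. A second, dim probe set of Clca1, at 3.00 and 2.84, gave 0.17. Of 18 goblet cell and mucus genes 3 were higher and none was lower (median 0.23): beside Clca1 these were the anion exchanger Slc26a4 (8.15 against 6.79) and Agr2, a disulfide isomerase needed for mucin folding (5.70 against 5.04; 0.31 by a dim probe set). The gel-forming mucins Muc5ac and Muc5b differed by 0.00 and 0.58, and Spdef, the transcription factor of goblet cells, by 0.27, all within the fold.

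Type 2 effectors had 6 of 25 measured members higher, against 1.14% of all genes, and none lower (median 0.17). Rnase2a, an eosinophil-associated ribonuclease also known as Ear11, had PNY levels of 4.06, 4.45, 7.20 and 3.82 and SHAM levels of 4.22, 3.96, 3.86 and 4.06. The PNY array of 3 days stood alone, by 3.35 over its SHAM partner (10.2-fold), while the other 7 arrays lay between 3.82 and 4.45. Those 7 levels were dim, below the median level of 5.92, so the fold change is taken over a dim level. Chil4, a chitinase-like protein made by airway epithelium and macrophages, showed the same shape: PNY levels were 4.94, 4.88, 7.85 and 5.71 and SHAM levels 4.95, 5.02, 5.08 and 4.60. Its difference was 2.77 at 3 days and 1.11 at 7 days, against -0.01 and -0.14 on the 2 earlier times. Apart from the PNY array of 3 days, all Chil4 levels were also below 5.92. Retnla, the resistin-like molecule alpha, was bright on all arrays, with PNY levels of 12.22, 12.20, 13.25 and 12.91 and SHAM levels of 11.80, 11.67, 11.80 and 12.14. PNY lay above all SHAM arrays at each time, most of all at 3 days (1.45).

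The eosinophil attractant Ccl24 had PNY levels of 6.63, 7.03, 7.36 and 6.02 and SHAM levels of 7.03, 7.71, 6.13 and 6.77. Its PNY level was highest at 3 days, its SHAM level lowest, and PNY was above SHAM at that time only. Arg1, the arginase of alternatively activated macrophages, turned over time, with PNY levels of 6.82, 8.12, 8.91 and 6.24 and SHAM levels of 6.98, 9.07, 7.43 and 9.73. At 3 days it was 1.48 above SHAM and at 7 days 3.49 below it, and the SHAM levels of 1 and 7 days were above the PNY level of 3 days. Ccl17 stood at 8.82 and 8.05 (0.77). The type 2 cytokines Il4, Il5 and Il13 differed by -0.03, 0.20 and 0.17, all within the fold. Siglecf, a receptor of eosinophils and alveolar macrophages, was below SHAM by 0.55, and Chil3, the near relative of Chil4, stood 0.19 above it. The RNA of Rnase2a and Chil4 is close in sequence to that of sister genes, so their probe sets may also read relatives.

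Il6, the acute phase cytokine, had PNY levels of 5.09, 4.27, 5.73 and 5.61 and SHAM levels of 7.91, 3.92, 4.27 and 5.10. Its difference was 1.47 at 3 days and -2.82 at 6 hours, and the SHAM level of 6 hours was the highest of all arrays. Of 23 acute phase and mucosal defence genes 3 were higher (median 0.14). Beside Il6 they were Ptx3, a pentraxin (6.18 against 5.34; -0.12 by a dim probe set), and Saa1 (4.30 against 3.69), whose other probe set gave -0.70. Of 18 neutrophil genes Il1r2 and Cxcl1 were higher (0.68 and 0.63; 0.51 and 0.36 by dimmer probe sets of Cxcl1), but the highest level of each gene was at 6 hours, 10.22 in PNY for Il1r2 and 9.57 in SHAM for Cxcl1. Among 18 genes of monocytes and interstitial macrophages the attractant Ccl2 was higher (6.91 against 5.65), together with Arg1, and Apoe was lower (10.84 against 11.43). Of 23 interferon-stimulated genes Cxcl10 was higher (7.53 against 6.72) and 19 were below SHAM (median -0.23).

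**Figure D3:**
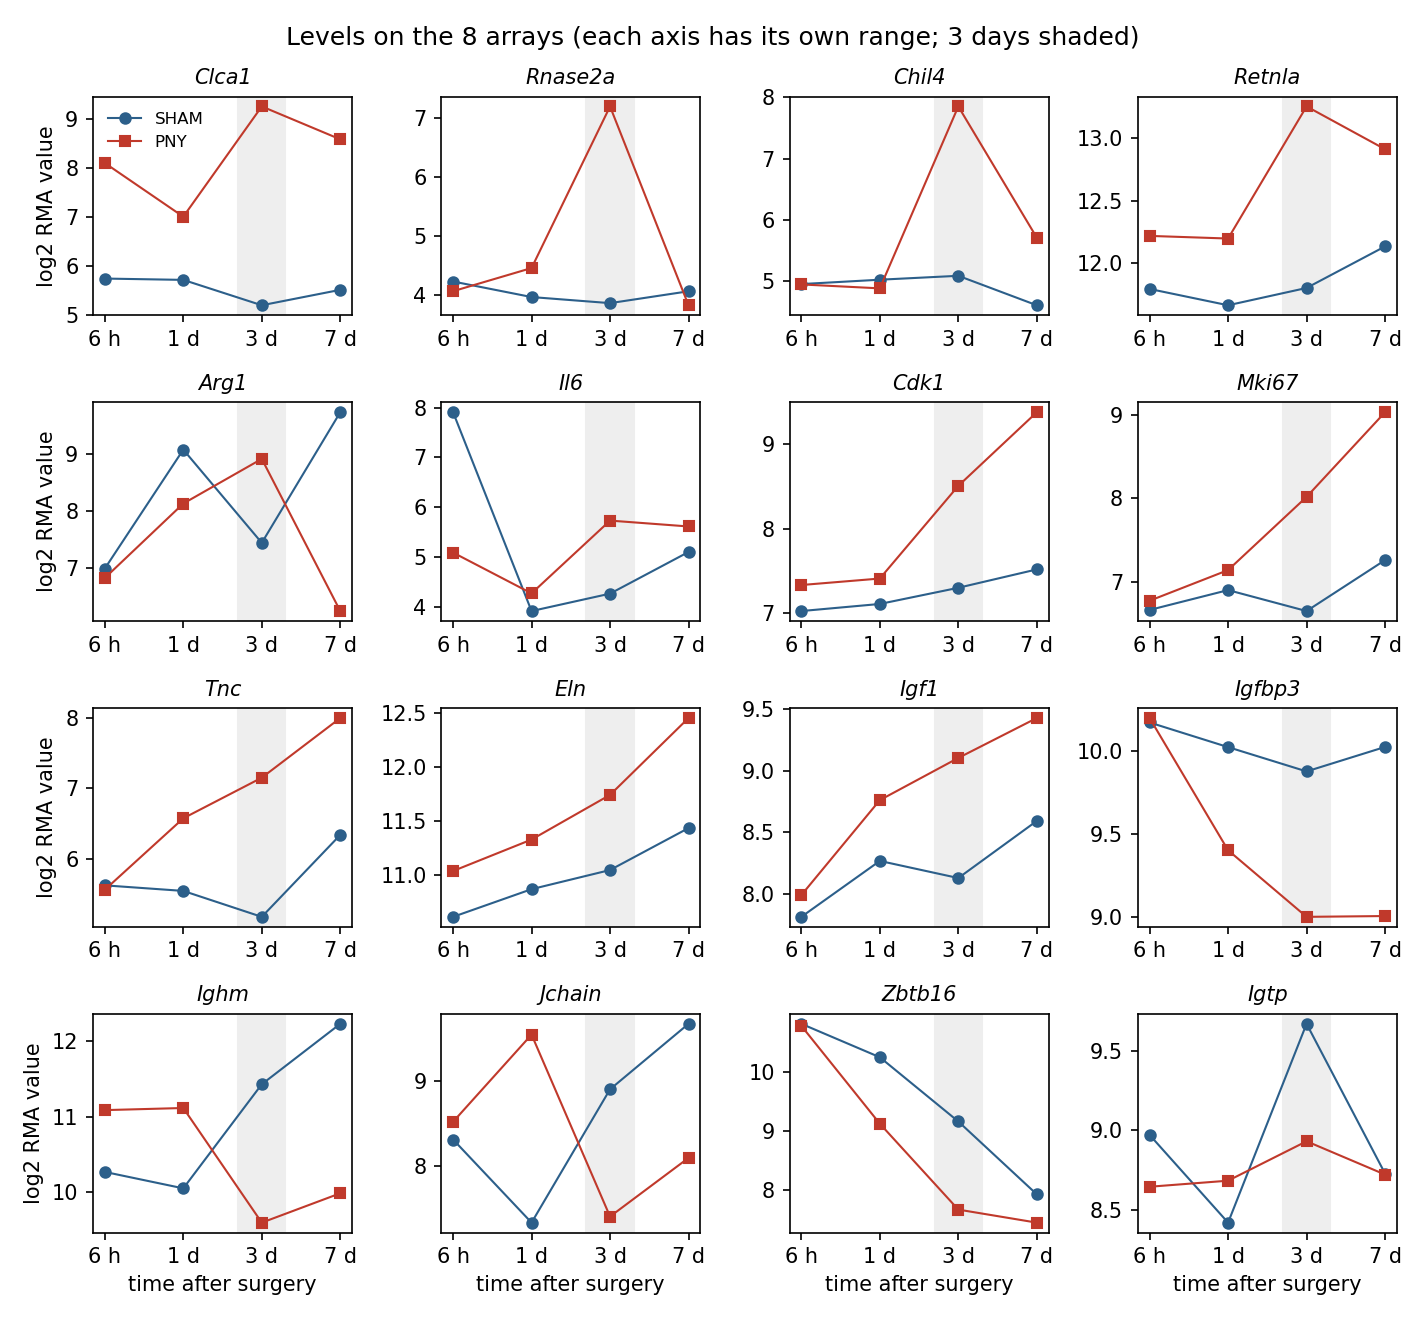
Levels of 16 genes (y axis, log2 RMA value, each with its own range) at the 4 time points (x axis, from 6 hours to 7 days) in PNY (red squares) and SHAM (blue circles), with 1 array of 8 pooled mice for each point. The PNY level of Rnase2a stands apart at 3 days only (7.20), that of Cdk1 at 3 and 7 days, and the lines of Arg1, Ighm and Jchain cross.

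The interferon-inducible GTPases, which act against pathogens inside cells, formed a list drawn up after values were seen. All 10 were below SHAM and 4 were past the fold (median -0.54, against 0.01 over all genes): Igtp, Irgm2, Iigp1 and Gbp8, by 0.74, 0.72, 0.68 and 0.61. For Igtp PNY levels were 8.65, 8.69, 8.93 and 8.72 and SHAM levels 8.97, 8.42, 9.67 and 8.73. It was the SHAM array of 3 days that stood high, as it did for 9 of the 10 genes. The mean level of the list was 9.31 on that array, 8.34 to 8.85 on the other SHAM arrays and 8.33 to 8.78 on the PNY arrays, and 6 of the 10 genes also had their highest PNY level at 3 days. Cd274, the ligand of the checkpoint receptor PD-1, lay the same way, at 7.20 in PNY and 7.96 in SHAM, the highest of the 8 arrays.

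Among genes above the median level, the immunoglobulin genes Ighm and Jchain lay farthest below SHAM. Ighm, the constant region of IgM, had PNY levels of 11.09, 11.12, 9.59 and 9.98 and SHAM levels of 10.27, 10.05, 11.43 and 12.23. The 4 differences were thus 0.82, 1.07, -1.84 and -2.25, so PNY lay above SHAM on the 2 early arrays and below it on the 2 late ones. The 10 other probe sets of Ighm gave -0.86 to -0.03 at 3 days, all in the same direction. Jchain, which joins IgM and IgA into polymers, followed with PNY levels of 8.52, 9.55, 7.40 and 8.09 and SHAM levels of 8.31, 7.33, 8.91 and 9.68. The list of immunoglobulin genes found by their symbols was also drawn up after values were seen. Of its 20 genes 19 were below SHAM and 5 were past the fold (median -0.32). Among these 5, Igkv8-30 was below SHAM by 0.91 and another kappa variable gene by 0.83. Such variable gene symbols share sequence, so their probe sets cannot be read as separate genes. Mzb1 of plasma cells was lower by 0.62, while 11 of 16 B cell genes were below SHAM with none past the fold (median -0.16). Cxcl13, which draws B cells and is made by serosal macrophages, stood at 6.76 in PNY and 8.26 in SHAM, and its PNY levels had been 8.98 and 9.18 at 6 hours and 1 day.

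Genes induced by glucocorticoids had 3 of 20 lower and none higher (median -0.22). Zbtb16, a transcription factor, had PNY levels of 10.77, 9.12, 7.67 and 7.45 and SHAM levels of 10.81, 10.24, 9.16 and 7.93. Both arms thus stood lower at each later time and the gap between them was widest at 3 days (-1.49). Klf15 (8.64 against 9.36) and Pdk4, which shuts pyruvate out of the citric acid cycle (6.62 against 7.32), were the other two. In the clock list of 17 genes Nr1d1 was lower (8.28 against 9.01) and Per1, also a glucocorticoid target, was 0.51 above SHAM, with neither list of one sign.

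Genes of ciliated cells lay slightly below SHAM. Of 16 motile cilia genes 14 were below SHAM, with Dnaic2, a dynein intermediate chain, past the fold (7.71 against 8.34; 0.11 by a dimmer probe set) and a median of -0.36. A list of 53 axonemal genes found by symbol was drawn up after values were seen. In it 41 were below SHAM, 2 were lower and 1 was higher (median -0.22). For 13 of the 16 the SHAM array of 3 days was the highest of its arm, against 23.3% of all genes, and the list's mean level was 7.90 there, 7.58 on the PNY array of 3 days and 7.46 to 7.80 on the 3 other SHAM arrays. Bpifa1, a secreted airway protein, was lower (11.59 against 12.20) and its SHAM level was likewise the highest of that arm. Whether the share of airway in the pools had a part in these differences was not tested.

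The alveolar and vascular lists showed little at 3 days. Of 16 alveolar type II genes none was past the fold (median -0.04), and of 14 type I genes Igfbp2 was higher and 13 were above SHAM (median 0.16). Of 25 endothelial genes Esm1, a proteoglycan of sprouting endothelium, was lower: its PNY levels were 7.83, 8.23, 7.78 and 7.73 and its SHAM levels 7.67, 8.77, 8.75 and 8.58. Actg2, a smooth muscle actin, was higher (8.81 against 7.97) and 13 of 16 smooth muscle genes were above SHAM (median 0.16). Alas2, the first enzyme of haem synthesis in red cell precursors, was lower (7.35 against 8.41), while the other 14 erythroid genes lay within the fold.

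**Figure D4:**
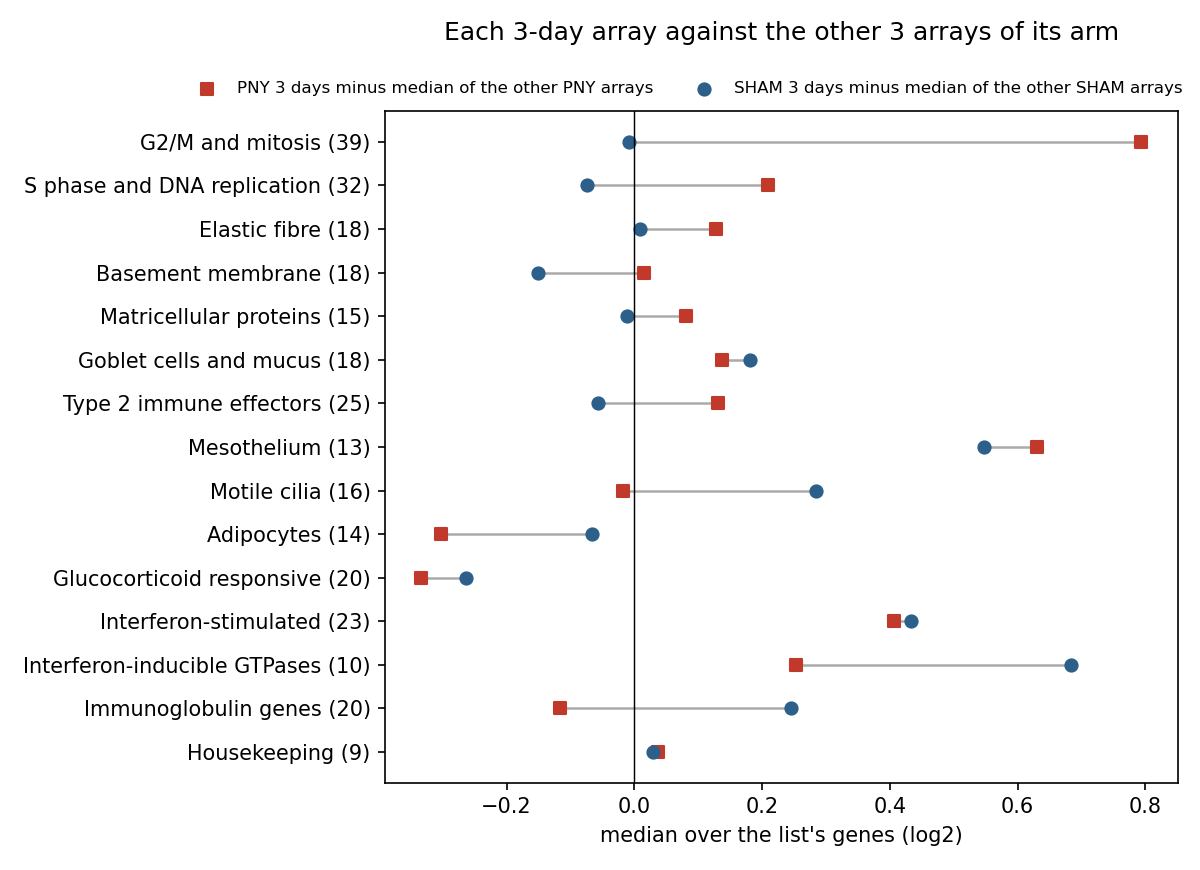
Median over the genes of 15 lists (number in brackets) of the PNY level at 3 days minus the median of the other 3 PNY levels (red squares) and of the SHAM level at 3 days minus the median of the other 3 SHAM levels (blue circles), on the log2 scale. For G2/M genes the PNY value is 0.79 and the SHAM value -0.01, although none of the 39 genes had its highest PNY level at 3 days; for the interferon-inducible GTPases and motile cilia the SHAM value is the farther from 0 (0.68 and 0.28), and for mesothelium both are high (0.63 and 0.55).

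The other time points, each with pools of its own, give the only view of how far the 3-day pattern recurs. At 6 hours 0.682% of genes were higher and 1.04% lower, at 1 day 1.88% and 1.09%, and at 7 days 1.98% and 1.48%. Of the 208 genes higher at 3 days 125 were also higher at 7 days, which is 60.1% of the 3-day list and 34.7% of the 7-day list of 360. With 1 day 31 were shared (14.9% and 9.06%) and with 6 hours 7 (3.37% and 5.65%). Of the 93 lower genes 19 were lower at 7 days (20.4% and 7.06%), 9 at 1 day and 6 at 6 hours, while 16 had been higher at 1 day. On the other 3 times the G2/M list had medians of 0.14, 0.25 and, at 7 days with all 39 higher, 1.65, and the type 2 list -0.15, -0.05 and -0.02.

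Whether the 3-day difference departed from that at the other times was tested with limma, as the 3-day difference minus the mean of the other 3 differences, with time as a block and 2 residual degrees of freedom. The spread in this fit comes from the differences at the other 3 times, so it holds change with time as well as error. A lack of calls thus cannot show that a 3-day difference was like the others. Of 45037 probe sets 0 passed an adjusted p under 0.05 (0%), and 1321 had an unadjusted p under 0.05, which is 2.93% of those tested. The leading gene was Rnase2a, with a contrast of 3.32 (standard error 0.32, unadjusted p 1.78e-05, limma adjusted p = 0.802). With a trended and robust prior it was the 1 probe set called (limma adjusted p = 0.0388), and over the other settings its adjusted p ran from 0.0644 to 1. Ccl24 (1.84, unadjusted p 9.67e-05) and Chil4 (2.45, unadjusted p 0.00125) followed among the named genes, neither past the adjusted threshold. Nor did the mitosis genes pass, which were above SHAM at 7 days as well.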

How the data were processed

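Scanned Mouse Genome 430 2.0 arrays were processed by the authors with RMA in BioConductor (version not given in the sources used here), which corrects background, quantile-normalizes and gives each probe set 1 log2 value. The deposited log2 values were used as given; the log base is not written with them and was taken from their range. The S-score named in the study's methods needs probe-level values and was not computed. Quantile normalization sets all arrays to 1 distribution, so a shift of most genes together would not be seen. The number of arrays, 1 per arm, limits the precision of each value.

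Of 45101 probe sets the 64 controls were left out. The array annotation gave 1 symbol for 34945 of the rest (the only ones named), more than 1 for 932 and no symbol for 9160; 34741 were found in the RefSeq gene table, which changed no symbol. For each gene the probe set of highest mean level was taken. The 49 gene lists hold 962 entries, of which 75 were not measured by a probe set of 1 symbol and were not analysed here. Another 3 lists (interferon-inducible GTPases, axonemal genes and immunoglobulin genes) were added after values were seen, and 2 entries were given a second symbol then. The members and lists were chosen with earlier results of these data known. Named are the 15 largest differences each way above the median level, up to 6 members a list, and genes the study names for 3 days; Kif2c, Cdc25c, Muc5b, Muc5ac, Spdef, Il4, Il5, Il13, Chil3, Irgm2, Iigp1 and Gbp8 were named after their values were seen. For the genes this rule names, further probe sets are quoted where their sign or call was another. Lists were described by counts and medians, with no test.

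The contrast of the 3-day difference with the other times was fitted with limma 3.58.1 in R 4.3.3 over all probe sets, with Benjamini-Hochberg adjustment; its p-values rest on pools taken at different times. The counts and the fit were tested on simulated data. Counts, levels and motifs came from pandas 2.3.3 and numpy 2.4.6 (Python 3.11.15), and figures from matplotlib 3.10.9.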

Additional observations from a re-analysis of the deposited data

How the results depend on the processing

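The counts moved with the partner array, with the fold and with the averaging of a gene's probe sets. With the PNY array of 3 days against the mean of the other 3 SHAM arrays (an alternative chosen after seeing the data) 304 genes were higher and 127 lower, and 123 of the 208 higher but only 25 of the 93 lower genes were kept; with the mean of the other 3 PNY arrays against the SHAM array of 3 days, also chosen after seeing the data, 172 were higher and 192 lower. In the first of these the matricellular proteins had 3 higher, the interferon-inducible GTPases 0 lower and the immunoglobulin genes 2 lower. In the second the S phase list had 5 higher, the type 2 list 1 higher, the GTPases 9 lower and the immunoglobulin genes 3 lower. The G2/M list kept 31 and 24 members higher in these. In the first, of the named genes past the fold, Igtp (0.22), Adamts4 (-0.18), Bpifa1 (0.48), Krt15 (0.022), Saa1 (-1.04), Il1r2 (-0.91), Cxcl1 (-0.21), Mzb1 (0.0689) and Pln (0.49) changed sign, as did 16 named genes within the fold, among them Bnc1 (1.21), Cldn15 (1.14), Per1 (-0.30) and Dcn (0.047).

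Centring each array or quantile normalization once more changed no count by over 1.5 times and no sign among the 133 named genes. With genes above the median level only, 122 were higher and 52 lower, and 7 in the S phase list were higher. A fold change of 2 left 51 higher and 6 lower, which raised the share of higher calls from 69.1% to 89.5%; it left 21 genes in the G2/M list, 3 in the S phase list and 2 among matricellular proteins higher, and 0 GTPases and 1 immunoglobulin gene lower. Averaging all probe sets of a gene gave 145 genes higher and 73 lower, with 135 of the 208 and 66 of the 93 kept. The G2/M list then had 24 higher, the S phase list 7 higher, the GTPases 6 lower and the immunoglobulin genes 2 lower. In this setting the differences of Clca1, Tnc and Hells were 2.11, 1.07 and 0.47, the last within the fold, and Saa1 turned (-0.0448). Other named genes that came within the fold were Ighm (-0.53), Cenpf (0.51), Vcan (0.46), Dtl (0.38), Ptx3 (0.37) and Agr2 (0.48). So did Plod2 (0.56), Cxcl1 (0.50), Pln (-0.54), Fabp4 (-0.28) and Dnaic2 (-0.27). In limma the count of called probe sets was 0 in each setting, leaving out each other time point (0 to 0) or each other array without the time block included, except with the trended and robust prior, which called 1; the fit without the block had 446 probe sets at an unadjusted p under 0.05. The causes of these moves were not tested.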

Other observations

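For 2 lists, and for the interferon-inducible GTPases given above, most genes had their highest level of each arm at 3 days. Over all 18193 genes this held for 4012 genes in PNY and for 23.3% in SHAM. Of 13 mesothelial genes 11 had their highest PNY level and 12 their highest SHAM level at 3 days, while the median difference was -0.04; the list's mean level was 9.72 in PNY and 9.77 in SHAM at 3 days, from 8.59 and 8.02 at 6 hours. Bnc1 stood at 8.04 and 8.36 and Cldn15 at 8.87 and 9.16 at 3 days. Of 23 interferon-stimulated genes 17 and 16 had their highest level of the arm at 3 days.

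Markers of tissue next to the lung were also read at 3 days. Thymocyte genes had a mean level of 5.98 in PNY and 5.89 in SHAM, where the PNY array of 1 day stood at 7.62. Cardiac genes stood at 7.72 and 7.82, with Pln lower (7.20 against 7.80; -0.47 and -0.56 by other probe sets), and skeletal muscle genes at 5.52 and 5.46, with Mybpc2 (6.69 against 5.91) and Myl1 (7.24 against 6.56) higher. Of 14 adipocyte genes 12 were below SHAM (median -0.28), with Fabp4 lower (8.86 against 9.48; -0.51, -0.25 and 0.24 by other probe sets). Of 17 NK and cytotoxic lymphocyte genes 16 were below SHAM with none past the fold (median -0.25), and Ppbp of platelets stood at 8.82 and 9.36. Cholesterol and fatty acid synthesis had 21 of 22 genes above SHAM, none past the fold (median 0.12), led by Cyp51 (0.34; 0.65 and 0.08 by dimmer probe sets) and Sqle (0.33).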
